A study of Mus musculus with 9 samples.

Results

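The genes of the ribosome's own proteins and of the factors that assemble ribosomes were followed in sorted mouse intestinal epithelium. The set was chosen by name and gene type, with no measured value in the rule but with earlier results of these data known. It held 110 of the 78239 genes in the deposited table. It holds 89 protein-coding genes whose symbols begin with Rpl or Rps and a digit, without the 10 kinase genes of the Rps6k family, and 21 named factors of ribosome biogenesis, Myc included. Of the 89, 43 encode core proteins of the large subunit and 30 core proteins of the small subunit. Another 11 are copies or unrelated genes that share the name stem, Rps27rt among them, 2 more have names in rt (Rpl27rt and Rpl35rt) and 3 carry a numbered pseudogene suffix although the table types them as protein coding (Rpl10-ps3, Rpl9-ps6 and Rps18-ps6). The 7 ribosomal genes with other names, such as Rplp0, Rpsa and Rack1, are outside the set and are given apart.

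All cells came from Lgr5-2A-eGFP mice aged 8 weeks, a reporter strain in which the green fluorescent protein is tied to Lgr5, a receptor of intestinal stem cells. Crypts were released by chelation, dissociated with TrypLE and sorted for GFP, with at least 30000 cells collected from a colon fraction and 50000 from a small intestinal one. There are 3 libraries each of the GFP-high and the GFP-negative colon and 3 of small intestine. For the latter the labels name no GFP fraction, and tissue and fraction cannot be told apart in any comparison with them. No label says that the libraries came from separate animals, so p-values measure the spread between these libraries.

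A ribosome is built in the nucleolus. RNA polymerase I transcribes the large precursor of ribosomal RNA, small nucleolar ribonucleoproteins guide its chemical modification, and separate processing routes carry the small and the large subunit to the cytoplasm while ribosomal proteins join them in near equal amounts. The transcription factor Myc is known to raise the genes of polymerase I, of the nucleolus and of the ribosome together. In the intestinal crypt this programme is known to be high in dividing stem and progenitor cells and to decline as cells differentiate.

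Each library held between 86621513 and 106673547 counts, so a gene without a count could stand at up to 0.0232 to 0.0411 CPM (counts scaled to library size). The 7 epithelial markers, among them Epcam and Cdh1, had counts in every library and summed to 10522 to 25352 CPM. A list of 16 immune markers summed to 71.0 to 1196 CPM in GFP-high colon, 29.1 to 8953 CPM in GFP-negative colon and 1200 to 3021 CPM in small intestine. Lgr5 went against the labels in the second colon pair: it stood at 43.5, 0.958 and 73 CPM in the libraries labelled GFP-high colon replicates 1 to 3 and at 2.84, 62.1 and 6.28 CPM in those labelled GFP-negative. Directions between the colon fractions therefore rest on labels that the reporter's gene contradicts in the replicate 2 pair, and they are given with and without it. The small intestinal libraries had 57.9, 120 and 209 CPM of Lgr5.

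Ribosomal protein messages are known for a run of pyrimidines at their 5′ end, and Myc is known to bind the hexamer CACGTG. Both were looked for in the RefSeq promoters of GRCm38.p6, which reach from 250 bases before the start to 50 after it. Of the members, 54 core ribosomal protein genes and 16 biogenesis genes had an entry. A run of 8 or more C or T that begins or ends within 2 bases of the start, or crosses it, was present in 19 of the 54 core genes (35.2%), in 1 of the 16 biogenesis genes (6.25%) and in 8.71% of the 27025 genes with a promoter. The 4 longest runs among the core genes are shown with the run in capitals, since ribosomal protein messages are known for it.

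Rpl7a: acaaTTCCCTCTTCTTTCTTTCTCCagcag
Rpl27a: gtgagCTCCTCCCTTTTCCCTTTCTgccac
Rpl34: acccgCCCCTTCCTTTTCCTCTTCCgggga
Rpl35: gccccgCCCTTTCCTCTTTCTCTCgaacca

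The windows lie at chr2:26910789-26910818 (plus strand), chr7:109519186-109519215 (plus), chr3:130730330-130730359 (minus) and chr2:39005115-39005144 (minus). Their runs are 21, 20, 20 and 18 bases long and begin 14, 4, 17 and 7 bases before the start. Part of each marked run therefore lies upstream of the annotated start, outside the annotated message.

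CACGTG, which reads the same on both strands, was in 4 of the 16 biogenesis genes (25%), in 6 of the 54 core ribosomal protein genes (11.1%) and in 8.09% of all genes with a promoter. The 4 biogenesis windows are shown with the hexamer in capitals, since Myc is one of the factors described here.

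Nop2: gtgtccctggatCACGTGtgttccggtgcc
Utp20: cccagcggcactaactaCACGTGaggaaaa
Pes1: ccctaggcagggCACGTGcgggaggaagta
Wdr43: cgcccgggcgaaCACGTGgctgccgcggag

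They lie at chr6:125131811-125131840 (plus strand), chr10:88826765-88826794 (minus), chr11:3963965-3963994 (plus) and chr17:71616220-71616249 (plus). The hexamer begins 60 bases before the start of Nop2 and 37, 2 and 17 bases after that of Utp20, Pes1 and Wdr43. Another motif, CCGGAAG on either strand, which is the core that Ets family factors read, was in 22 of the 54 core ribosomal protein genes (40.7%), in 4 of the 16 biogenesis genes (25%) and in 9.93% of all genes. A match here describes the letters of the window and not a bound factor.

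Scaled for gene length as RPKM (mean of the 9 libraries), the core genes had a median of 149. The lengths are those deposited with the counts, for example 383 bases for Rpl36 and 6270 for Rps15a. They were not compared with the lengths of the messages, and levels between genes depend on them. Rpl13 (764 RPKM) and Rpl4 (755 RPKM), both of the large subunit, stood near the top. Rps10 (0.691), Rpl24 (0.98) and Rpl13a (2.75) stood lowest, far under proteins with which they share the ribosome. In the GENCODE M21 annotation 32 of the 73 core genes overlap another gene on the same strand, Rpl13 and Rpl4 included. Each of the 3 lowest genes overlaps a longer transcribed gene (RPS10-NUDT3 for Rps10, Gm28037 for Rpl24, and Gm45713 for Rpl13a), and reads in such overlaps can be assigned to neither gene, so the single-gene values of such genes are uncertain.

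**Figure D1:**
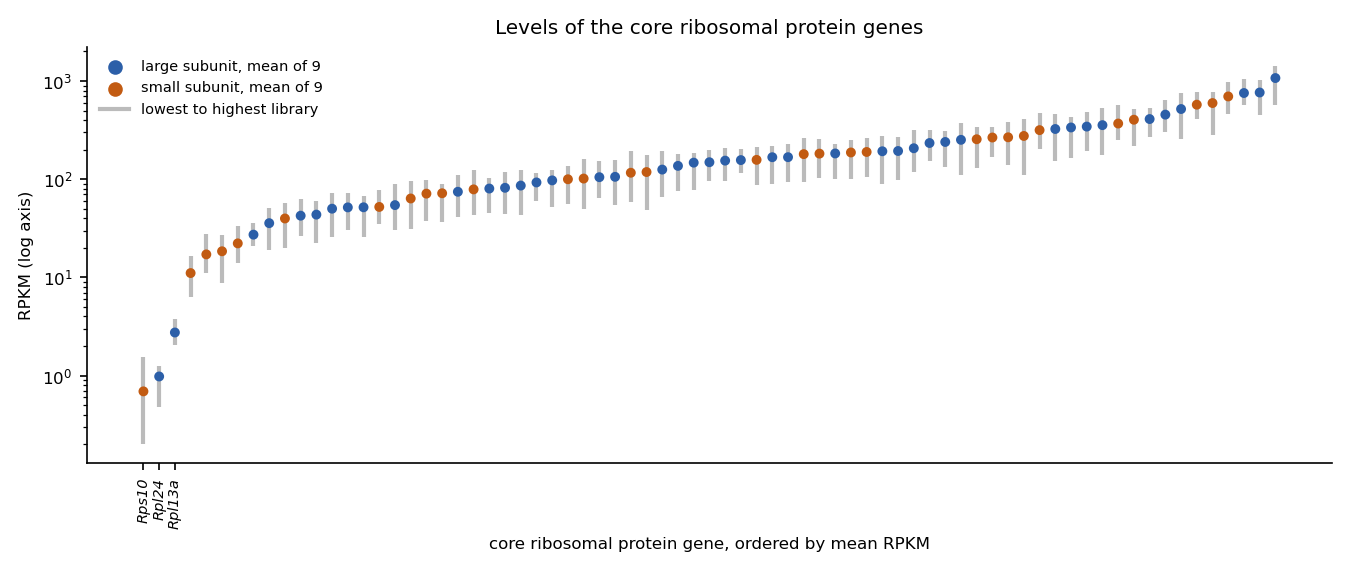
Level of each of the 73 core ribosomal protein genes, ordered by mean level, with the 3 lowest named. Points give the mean RPKM of 9 libraries on a log axis, blue for the large and orange for the small subunit, and grey bars run from the lowest to the highest library. Rps10, Rpl24 and Rpl13a lie below 3 RPKM, far under the median of 149 RPKM.

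The core genes moved as a block from library to library. Their summed level was 35006, 25748 and 22165 CPM in GFP-high colon replicates 1 to 3, 30164, 30852 and 21995 CPM in GFP-negative colon and 24641, 29458 and 15406 CPM in small intestine. The ranges of the 3 groups overlap, and each group spans more than the distance between the group means of 27640, 27670 and 23169 CPM. GFP-high colon replicate 1 held the highest level of 58 of the 73 genes and small intestine replicate 3 the lowest of 70. The ratio of large to small subunit counts stayed between 1.65 and 1.88 in all 9 libraries, and the 309 pseudogene rows named after ribosomal proteins made 6.54 to 7.31 counts per 1000 core counts.

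Within the block, a typical gene followed the block's own median closely. On the log2 scale of CPM plus 0.5, the standard deviation of a core gene over the 9 libraries had a median of 0.409, and of 0.137 once the block's median in each library was taken off. Rps10 (0.637), Rps27 (0.391), Rpl4 (0.326) and Rpl3 (0.326) kept the largest remaining spread. Rpl3 (0.312) and Rpl4 (0.290) had a smaller spread than the typical gene before that step, and Rps27 varied more than any of them (standard deviation 0.615 before the block's median was taken off). Pearson's r of a core gene with the block's median ranged from 0.248 (Rps10) to 0.993 over the 9 libraries, a description of points that share library and scaling.

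The 21 biogenesis factors spread more widely and in another order. Their summed level was 1927, 1425 and 2873 CPM in GFP-high colon, 1671, 3164 and 999.55 CPM in GFP-negative colon and 2621, 4854 and 3652 CPM in small intestine. Small intestine replicate 2 held the highest level of 19 of the 21 factors and GFP-negative colon replicate 3 the lowest of 19. Between the lowest and the highest library a factor changed by a median of 4.08 times, against 2.53 times for a core ribosomal protein gene. After the set's median was taken off, Fbl (0.744) and Ncl (0.729) kept the largest standard deviation on the log2 scale. Nip7 (0.622) and Utp20 (0.576) came next, and their own standard deviations of 0.323 and 0.313 were the smallest of the set.

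Set against each other, which needs no scaling between libraries, biogenesis counts per 1000 core ribosomal protein counts were 55.1, 55.3 and 130 in GFP-high colon, 55.4, 103 and 45.4 in GFP-negative colon and 106, 165 and 237 in small intestine. The 2 highest values are small intestinal, and small intestine replicate 1 lay below GFP-high colon replicate 3, so the tissues overlap.

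**Figure D2:**
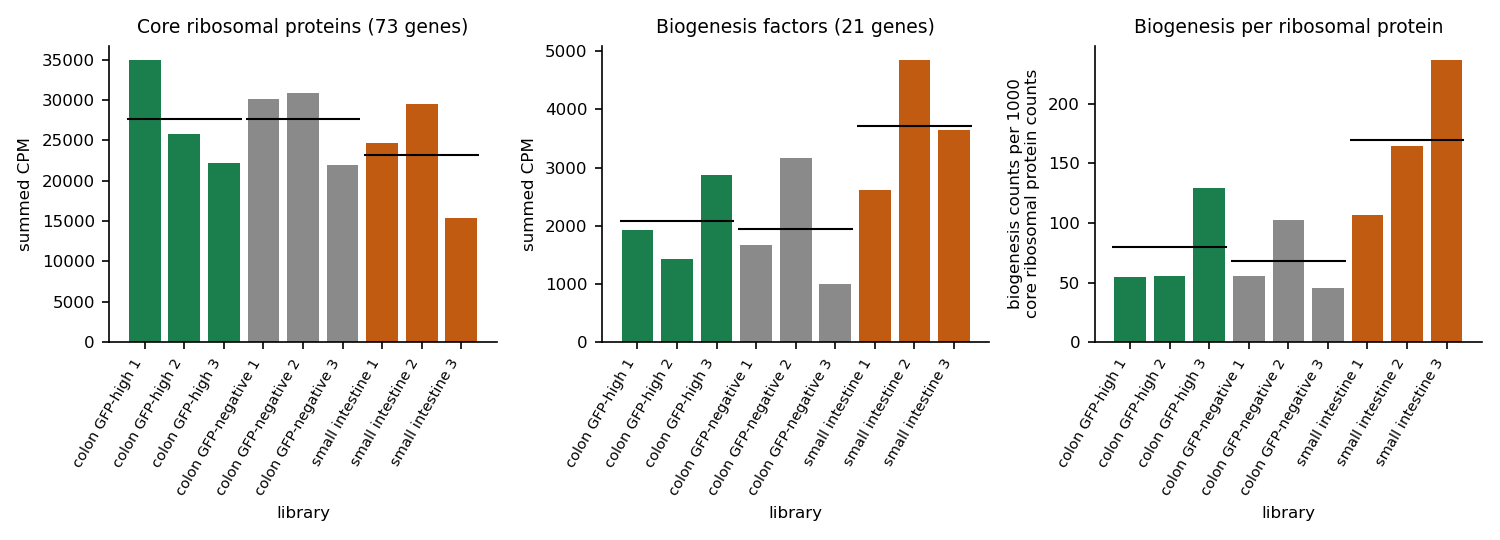
Summed level of the 73 core ribosomal protein genes (left) and of the 21 biogenesis factors (middle) in CPM, and biogenesis counts per 1000 core ribosomal protein counts (right), by library. Bars are single libraries and black lines are group means. The core sum is lowest in small intestine replicate 3 (15406 CPM), whereas the biogenesis sum is highest in small intestine replicate 2 (4854 CPM).

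Markers of stem and of dividing cells were also highest in small intestine replicate 2 and lowest in GFP-negative colon replicate 3. All 8 stem cell markers (Lgr5, Ascl2, Smoc2, Axin2, Lrig1, Rnf43, Znrf3 and Cdca7) and all 12 cell cycle markers, such as Mki67 and Pcna, had counts in every library. The stem markers summed to 178 to 1029 CPM in GFP-high colon, 141 to 1098 CPM in GFP-negative colon and 857 to 2117 CPM in small intestine. The cell cycle markers summed to 1173 to 2377, 1031 to 2796 and 2202 to 3759 CPM in the same groups. Biogenesis counts per 1000 cell cycle marker counts were between 811 and 1261 in the colon and between 1190 and 1347 in small intestine. The 7 enterocyte markers summed to 77.3 to 219 CPM in the colon and 516 to 31864 CPM in small intestine, and the 7 Paneth cell markers to 29.4 to 5099 and 17215 to 27327 CPM. Other lists reached higher in the colon. The 7 colonocyte markers summed to 1926 to 30311 CPM there and 503 to 4182 CPM in small intestine. The 7 goblet markers had 6981 to 44085 and 1544 to 18975 CPM, and the 10 enteroendocrine markers 154 to 11984 and 396 to 753 CPM. GFP-negative colon replicate 3 held the most of the colonocyte (30311 CPM) and the immune markers (8953 CPM). The part of these cell states and cell types in the differences given here was not tested, and in bulk RNA fewer cells of a type and less RNA per cell cannot be told apart.

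The first comparison asks how the tissues differ: the mean of both colon fractions against small intestine. Here 8.79% of the 20610 genes tested were called at an adjusted p under 0.05 (edgeR's quasi-likelihood test, Benjamini-Hochberg over all genes tested), 3.79% as lower in colon. Of the called genes 56.8% were higher in colon, and 67.0% with upper quartile scaling. The estimates of the ribosomal proteins and of the biogenesis factors lay mostly on opposite sides of 0, and 1 member was called. Of 85 ribosomal protein genes tested, 1 was called and it was lower in colon, and 5 were higher and 2 lower at an unadjusted p under 0.05, where 13.1% and 11.8% of all genes were. Their log2 fold changes had a median of 0.29 with 77 of 85 above 0, while the median over all genes tested was -0.00030 with 10303 of 20610 above 0. Of the 21 biogenesis factors, 0 were called, 12 were lower at an unadjusted p under 0.05 and none was higher, and the median was -0.95 with 20 of 21 below 0. That count of 12 fell to 0 without small intestine replicate 2 (median -0.65) and with the library name prefix as a block (median -0.78), to 6 with the name tag as a block, to 8 with upper quartile scaling and to 5 without small intestine replicate 3.

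**Figure D3:**
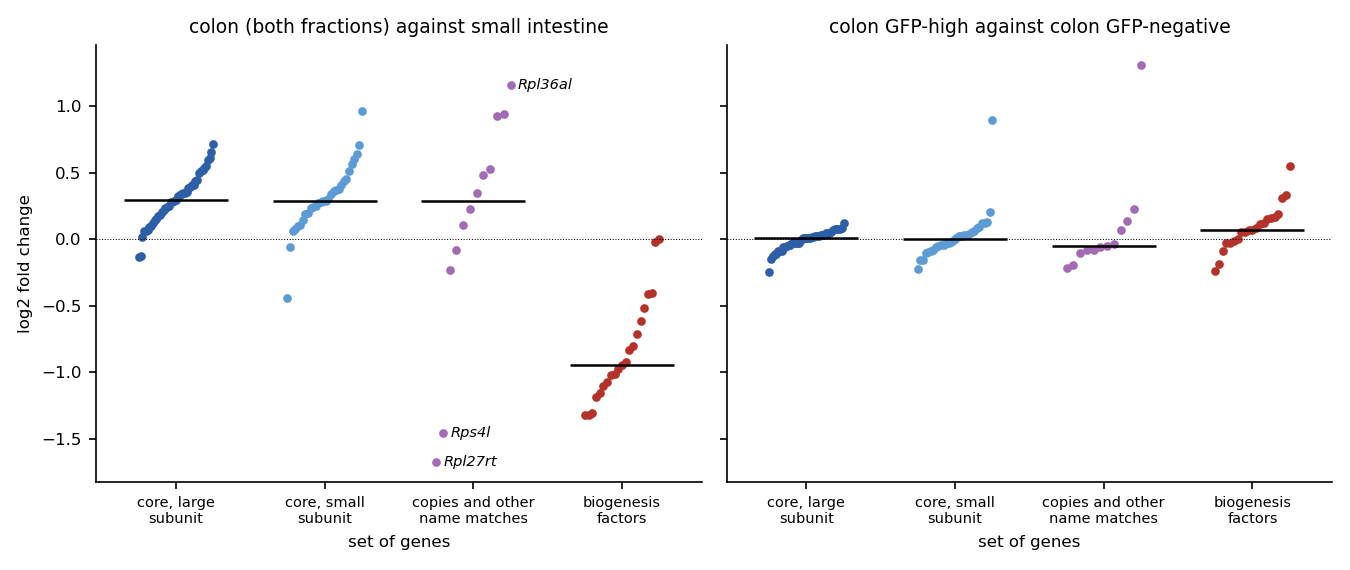
Log2 fold change of each tested member in the tissue comparison (left) and between the colon fractions (right), from edgeR. Points are genes, ordered within each set, and black lines are medians. In the tissue comparison the core genes centre on 0.29 and the biogenesis factors on -0.95, and Rps4l and Rpl27rt lie at the low end of the copies.

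Among the core genes the estimates were mostly above 0 and small. The median log2 fold change was 0.29 in both the large and the small subunit, with 69 of 73 genes above 0 and a median standard error of 0.293. Without small intestine replicate 3 it was 0.03, with 43 of 73 above 0. In the libraries whose names share a tag, the core median was 0.22 for colon replicates 1 over small intestine replicate 2 (57 of 73 genes higher) and 0.53 for GFP-high colon replicate 3 over small intestine replicate 3 (72 of 73 higher). The 4 genes with a negative estimate were Rpl4 (-0.13), Rps2 (-0.06), Rpl13a (-0.13) and Rps10 (-0.44), of which Rps2 was singled out after its value was seen. Rpl13 had 0.28 and Rpl24 had 0.10.

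Rps27, a zinc-binding protein of the small subunit (ENSMUSG00000090733, chr3:90212522-90213651, minus strand, GRCm38), had the highest estimate of the core. It stood at 182, 151 and 85.1 CPM in GFP-high colon, 170, 139 and 157 CPM in GFP-negative colon and 86.5, 88.9 and 51.1 CPM in small intestine. Only GFP-high colon replicate 3 reached down into the small intestinal range. The log2 fold change was 0.97 ± 0.30 (SE), with an adjusted p of 0.0815 in edgeR and 0.015 in DESeq2. Leaving out GFP-high colon replicate 3 gave 1.12 and an adjusted p of 0.0434. DESeq2 and this fit were the only 2 of its 22 alternatives with a call. Over all 22 the log2 fold change ran from 0.73 to 1.13.

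Rps27rt, a retrogene copy on chromosome 9, kept a near constant ratio to Rps27. Its coding sequence in GENCODE M21 is the same as that of Rps27 at all 252 bases. It had 2.46 to 2.78 counts per 100 Rps27 counts in every library, while Rps27 itself ranged from 51.1 to 182 CPM, and its log2 fold change of 0.94 ± 0.39 (adjusted p = 0.18) lay beside that of Rps27. Rpl10-ps3 likewise held 1.38 to 1.68 counts per 100 of Rpl10, Rpl9-ps6 2.34 to 3.24 per 100 of Rpl9, and Rpl35rt 9.29 to 13.4 per 100 of Rpl35. How reads that map to several places were counted is not given in the sources used here, so reads of these copies and of their sources cannot be told apart. Rps27l, a copy of Rps27 that p53 is known to induce, is 76.2% identical to Rps27 in its coding sequence and did not follow it: it held 113 to 159 counts per 100 Rps27 counts in the colon and 227 to 291 in small intestine. Its own level had a log2 fold change of 0.10 ± 0.32.

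Rps4l was the member called between the tissues, and it was lower in colon. It is a retrocopy of the X-linked small subunit gene Rps4x (ENSMUSG00000063171, chr6:148354656-148355598, plus strand, GRCm38). The deposited table types it as protein coding and GENCODE M21 as a processed transcript and a transcribed processed pseudogene. Its transcript Rps4l-202 aligns without a gap to the 789 coding bases of Rps4x, with 628 of them identical (79.6%) and no shared stretch longer than 35 bases. Coding bases 484 to 573 of Rps4x, the window of 90 bases where the pair differs most, are shown with the 27 differing bases in capitals.

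Rps4x: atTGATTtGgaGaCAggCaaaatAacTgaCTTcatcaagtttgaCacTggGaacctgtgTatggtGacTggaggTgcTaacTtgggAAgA
Rps4l: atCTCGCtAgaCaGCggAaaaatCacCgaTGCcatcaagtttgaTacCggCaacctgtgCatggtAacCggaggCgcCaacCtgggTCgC

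Rps4l stood at 67.6, 37.4 and 39.0 CPM in GFP-high colon, 69.8, 28.2 and 49.9 CPM in GFP-negative colon and 154, 150 and 97.7 CPM in small intestine. All 6 colon libraries lay below all 3 small intestinal ones, as did 8.39% of all genes tested. The fold was 2.75, a log2 fold change of -1.46 ± 0.32 (SE) with an adjusted p of 0.024 in edgeR and 0.00166 in DESeq2. For Rps4x the groups overlapped: it stood at 933, 511 and 517 CPM, 535, 666 and 504 CPM, and 572, 772 and 409 CPM in the same groups (log2 fold change 0.06 ± 0.30, adjusted p = 0.924). Per 100 Rps4x counts, Rps4l had 7.25, 7.32 and 7.55 counts in GFP-high colon, 13.0, 4.24 and 9.89 in GFP-negative colon and 26.9, 19.5 and 23.9 in small intestine, so the ratio separated the tissues too.

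The call for Rps4l held in 13 of its 22 alternatives, with a log2 fold change between -1.66 and -1.19 in all of them. It was lost without GFP-high colon replicate 2 (adjusted p = 0.0598) or 3 (0.0635), without small intestine replicate 1 (0.0892) or 2 (0.0921) and without the colon replicate 2 pair (0.068). It was also lost with upper quartile scaling (0.0521) and with the library name prefix (0.0902) or tag (0.204) as a block. Tmtc1, which lies across Rps4l on the opposite strand, had at most 0.196 CPM in any library, far below Rps4l.

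**Figure D4:**
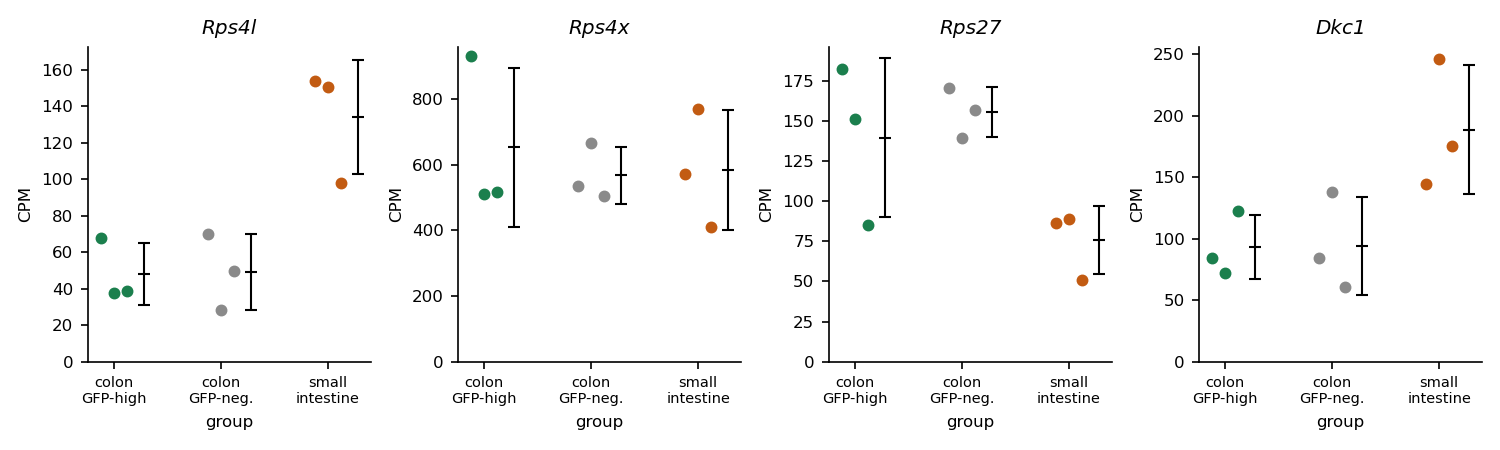
CPM of Rps4l, Rps4x, Rps27 and Dkc1 in each library. Points are libraries, and the black bar beside each group gives its mean and SD (n = 3). For Rps4l the 6 colon libraries (28.2 to 69.8 CPM) lie below the 3 small intestinal ones (97.7 to 154 CPM), whereas Rps4x overlaps between all groups.

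None of the remaining copies and name matches was called. Rpl36al, a copy of Rpl36a that is 87.7% identical to it in its coding sequence, had the highest estimate of all ribosomal names, 1.16 ± 0.68, at 0.232 to 2.28 CPM. Rpl27rt had the lowest, -1.67 ± 0.61 (adjusted p = 0.131), and its libraries separated by tissue at 0.0399 to 0.465 CPM, close to the limit of a few counts. Rpl22l1, whose product can take the place of Rpl22, had 0.49 ± 0.32 and Rpl22 itself 0.01 ± 0.24, and Rpl7l1 had -0.08 ± 0.22 beside 0.44 ± 0.26 for Rpl7. Per 100 Rpl7 counts, Rpl7l1 had 42.2 to 49.4 counts in the 6 colon libraries and 62.0 to 74.8 in small intestine, without overlap. How many ratios between other genes separate the tissues was not counted, and the estimate of Rpl7l1 itself lay near 0. Rpl36a had 0.34 ± 0.29. Rps19bp1, which encodes a binding partner and no ribosomal protein, had 0.23 ± 0.27 and Rps23rg1 had -0.23 ± 0.44. The copies Rpl10l and Rpl39l and the gene Rps18-ps6 had no count in any library, and Rpl3l, a form of striated muscle, stayed at or below 0.130 CPM, so these 4 were not tested.

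The biogenesis factors are taken by their place in the pathway. For polymerase I, its second largest subunit Polr1b stood at 16.4, 11.7 and 17.0 CPM in GFP-high colon, 14.1, 23.2 and 4.4 CPM in GFP-negative colon and 21, 46.7 and 40.8 CPM in small intestine. Small intestine replicate 1 fell within the colon range and the other two above it. The log2 fold change was -1.33 ± 0.45 (adjusted p = 0.108), the lowest estimate of the set. The largest subunit, Polr1a, had -0.95 ± 0.37 (adjusted p = 0.155).

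Among the small nucleolar ribonucleoprotein genes, Dkc1, the pseudouridine synthase that is mutated in dyskeratosis congenita, came nearest to a call. It stood at 84.2, 72.5 and 123 CPM in GFP-high colon, 84.2, 138 and 60.3 CPM in GFP-negative colon and 144, 246 and 176 CPM in small intestine, with no overlap between the tissues. Its log2 fold change was -1.01 ± 0.30 with an adjusted p of 0.0715 in edgeR and 0.0197 in DESeq2. Nolc1, a nucleolar chaperone of these particles, had -1.31 ± 0.43, and Rrp9, a protein of the U3 particle, had -0.83 ± 0.26. The box C/D core proteins Nop56, Nop58 and the methyltransferase Fbl had -0.71 ± 0.32, -0.41 ± 0.35 and -0.98 ± 0.68. Fbl was the least even of them, at 126, 51.4 and 323 CPM in GFP-high colon, 148, 403 and 43.8 CPM in GFP-negative colon and 303, 495 and 272 CPM in small intestine.

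For the small subunit route, Rrp12, an export factor of the precursors, also did not overlap: it stood at 6.44, 5.68 and 12 CPM in GFP-high colon, 9.23, 14.2 and 4.15 CPM in GFP-negative colon and 14.3, 22.8 and 21.6 CPM in small intestine. The highest colon library (14.2 CPM) lay just under the lowest small intestinal one (14.3 CPM), and the log2 fold change was -1.19 ± 0.39 (adjusted p = 0.102). Wdr43 had -1.02 ± 0.44 and Rcl1 -0.92 ± 0.34. Utp20, a scaffold protein of the early small subunit precursor, had -0.02 ± 0.28, with 6.21 to 13.1 CPM over all libraries.

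For the large subunit route, the methyltransferase Nop2 had -1.16 ± 0.36 (adjusted p = 0.0863) and stood at 39.5, 26.8 and 47.1 CPM in GFP-high colon, 33.2, 57.4 and 18.1 CPM in GFP-negative colon and 53.3, 106 and 88.2 CPM in small intestine. Only GFP-negative colon replicate 2 rose above the lowest small intestinal library. Noc2l had -1.07 ± 0.34, and the partners Pes1 and Bop1, which act in 1 complex, had -0.80 ± 0.37 and -0.61 ± 0.21. Nip7 had 0.0042 ± 0.26, with means of 48.2, 48.2 and 48.1 CPM in the 3 groups.

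The nucleolar proteins Ncl, Npm1 and Gnl3 had -1.32 ± 0.64, -0.52 ± 0.33 and -0.41 ± 0.31. Ncl (nucleolin) ran from 80.8 CPM in GFP-negative colon replicate 3 to 953 CPM in small intestine replicate 2, the widest range of the set at 11.8 times. Myc itself stood at 217, 86.2 and 215 CPM in GFP-high colon, 99.0, 183 and 73.3 CPM in GFP-negative colon and 140, 391 and 391 CPM in small intestine. Small intestine replicate 1 lay inside the colon range, and the log2 fold change was -1.10 ± 0.44 (adjusted p = 0.16).

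In all, 2 of the 21 factors (Dkc1 and Rrp12) were below small intestine in every colon library, a share near the 8.39% of all genes tested. DESeq2 called 7 of them lower in colon, namely Dkc1, Nop2, Nolc1, Noc2l, Rrp9, Rrp12 and Polr1b, with adjusted p between 0.0197 and 0.0382, where it called 17.6% of all genes and 6.65% as lower. In edgeR, 3 were called without GFP-negative colon replicate 2 (Dkc1, Nop2 and Nolc1) and 1 without small intestine replicate 1 (Noc2l), while without small intestine replicate 2 none was called or had an unadjusted p under 0.05. Of the genes also tested in the main fit, the first of these fits called 1460 of 20607 and the second 1014 of 20610. In libraries that share a name tag, the median was -1.25 with 21 of 21 lower for colon replicates 1 over small intestine replicate 2, and -0.54 with 17 of 21 lower for GFP-high colon replicate 3 over small intestine replicate 3. No direction of the set's median turned in the tissue comparison under any of 22 alternatives.

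**Figure D5:**
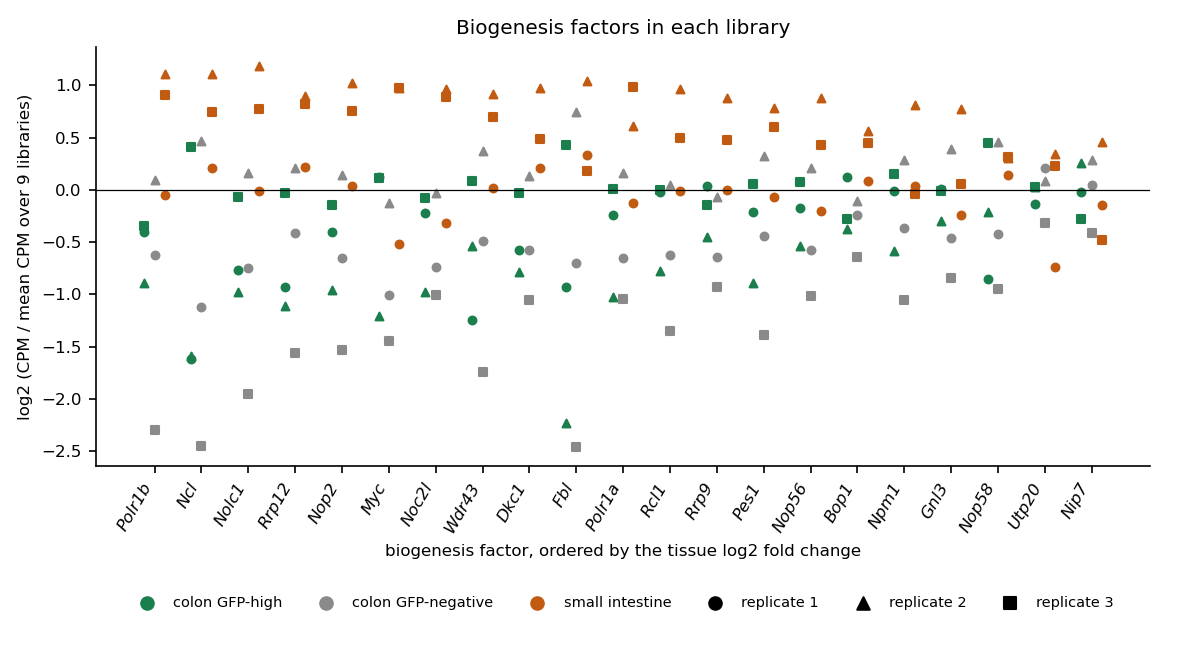
Level of each of the 21 biogenesis factors in each library, as the log2 ratio of its CPM to its mean over 9 libraries (vertical axis), ordered by the tissue log2 fold change. Colours are groups and marker shapes are replicates. Small intestine replicate 2 (orange triangles) is the highest library for 19 factors and GFP-negative colon replicate 3 (grey squares) the lowest for 19.

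The rest of the pathway, in lists not drawn from these genes, had estimates mostly below 0 as well, with few calls. Of 92 other biogenesis genes, 1 was called higher and 1 lower in colon, 27 were lower and 2 higher at an unadjusted p under 0.05, and 78 had estimates below 0 (median -0.51). Of all genes tested 8.79% were called, and 11.8% were lower and 13.1% higher at that unadjusted p. Utp15, of the complex that links polymerase I transcription to processing, was the one called lower (-1.25 ± 0.32, adjusted p = 0.0424), and Utp11, of the small subunit precursor, the one called higher (0.88 ± 0.21, adjusted p = 0.0341). Utp11 stood at 113, 115 and 84.8 CPM in GFP-high colon, 130, 107 and 112 CPM in GFP-negative colon and 60.9, 72.0 and 46.9 CPM in small intestine, above small intestine in all 6 colon libraries, as were 9.49% of all genes tested. Of 9 other small nucleolar particle genes 0 were called and 7 had estimates below 0 (median -0.44). The most abundant of them, Nhp2, had -0.05 ± 0.32. Of 13 other polymerase I genes 0 were called and 9 had estimates below 0 (median -0.30). Their most abundant gene, Polr1d, a subunit shared with polymerase III, went the other way with 0.58 ± 0.25. Among 35 other large subunit genes 0 were called and 30 had estimates below 0 (median -0.49). Eif6, the most abundant of these, had 0.09 ± 0.24.

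Utp11 lost its call in 14 alternatives and Utp15 in 15 of 22, each without a change of sign. Of 10 partners and rivals of Myc, 1 was called, where 8.79% of all genes tested were. Their estimates lay on both sides of 0, with 5 above and 5 below (median -0.01). The called gene was Mxd4, a repressor that competes with Myc for Max, and it was higher in colon. It stood at 63.7, 60.7 and 31.5 CPM in GFP-high colon, 56.2, 38.1 and 70.4 CPM in GFP-negative colon and 20.3, 15.6 and 12 CPM in small intestine. No colon library reached down to the small intestinal values, as for 9.49% of all genes tested. The log2 fold change was 1.75 ± 0.34 (adjusted p = 0.0138, called in 18 of 22 alternatives). Of the 7 ribosomal genes with other names 0 were called (median 0.23), and Rack1 had 0.30 ± 0.26. Of 14 translation genes whose messages are known for a 5′ pyrimidine run 0 were called, and 9 had estimates above 0 (median 0.13). Their estimates ran from -1.18 to 0.68, and the most abundant, Eef1a1, had 0.36 ± 0.24. At an unadjusted p under 0.05, 3 were lower and 1 higher, beside 11.8% and 13.1% of all genes tested. The 78 genes of the mitochondrial ribosome had a median of 0.16, with 50 above 0 and 28 below. Of these 78 genes 1 was called, lower in colon, and 4 were higher and 3 lower at that unadjusted p.

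Taken alone, GFP-high colon against small intestine shares its libraries with the first comparison, and 5.69% of genes were called. None of the 85 ribosomal protein genes and none of the 21 biogenesis factors was called in edgeR, where 2 and 6 had an unadjusted p under 0.05 beside 20.5% of all genes, and DESeq2, which called 13.2% of all genes, called Rps4l and no biogenesis factor. Rps4l had -1.48 ± 0.39 (adjusted p = 0.0657), Rpl27rt -1.02 ± 0.74 and Rps23rg1 -0.16 ± 0.51 at the low end. Rpl36al, Rps27 and Rps27rt had 1.11 ± 0.76, 0.89 ± 0.33 and 0.83 ± 0.44 at the high end. The biogenesis median was -0.83, and Nolc1, Polr1b and Nop2 joined Dkc1 and Rrp12 as factors whose groups did not overlap, 5 of 21 where 13.1% of all genes lay lower without overlap. These values include the library labelled GFP-high replicate 2, whose Lgr5 goes against its label. Without the replicate 2 pair the median was -0.55 and 1 factor had an unadjusted p under 0.05, and none had one without GFP-high colon replicate 2 alone or without small intestine replicate 2.

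Between the colon fractions as labelled, no member was called. In edgeR 0 of 20610 genes (0.00%) were called, and 226 (1.10%) had an unadjusted p under 0.05, none of them a member. DESeq2 called 1 gene, which was no member. The core ribosomal protein median was 0.01 (39 of 73 above 0) and the biogenesis median was 0.07 (15 of 21 above 0), beside -0.02 for all genes. The biogenesis median was below 0 with the library name tag (-0.30) or prefix (-0.09) as a block, without GFP-high colon replicate 3 (-0.07) and without GFP-negative colon replicate 3 (-0.17). Among ribosomal names estimates at the low end included Rpl37a (-0.25 ± 0.36) and Rps27rt (-0.22 ± 0.44), and those at the high end were Rps19bp1 (0.22 ± 0.31), Rps10 (0.89 ± 0.68) and Rpl27rt (1.31 ± 0.75). Of the biogenesis factors, Fbl had the lowest estimate, -0.24 ± 0.80, and Myc the highest, 0.55 ± 0.52.

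In the replicate 2 pair, the library labelled GFP-high had less of all 21 factors than its GFP-negative partner, with a median log2 ratio of -0.92. Of the core ribosomal protein genes 65 of 73 were lower there (median -0.24), all 8 stem markers and all 12 cell cycle markers were lower, and all 16 immune markers were higher. In the replicate 1 pair, 13 of 21 factors were higher in GFP-high (median 0.23), as were 64 of 73 core genes (median 0.20), 10 of 12 cell cycle markers and all 8 stem markers. Of the 16 immune markers 15 were lower in GFP-high in that pair and 1 was higher (median -2.97). The remaining libraries, GFP-high colon replicate 3 and GFP-negative replicate 3, do not share a tag. Without the replicate 2 pair the biogenesis median was 0.72 with 20 of 21 above 0, and Myc had 1.32, Fbl 1.22 and no factor was called in edgeR, where 1 factor had an unadjusted p under 0.05 (Myc, 0.0356). So did 1476 of the 20519 genes also tested in the main fit. The core ribosomal protein median was 0.10 in that fit. Whether the labels of the pair are exchanged was not tested.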

How the data were processed

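RNA-seq was measured in 9 libraries, 3 in each of 3 groups. The deposited values are raw counts per gene, made by the authors with STAR and featureCounts of Subread on mm10, per the submitters' processing notes. For their versions, the annotation release, the strand setting and multiply mapped reads, the answer is not given in the sources used here. The deposited scaling ratio per library (a normalization factor) is the authors', per the file headers.

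Genes were filtered with filterByExpr, scaled with TMM and tested with edgeR 4.0.16 (quasi-likelihood, all 9 libraries in 1 fit, Benjamini-Hochberg over 20610 genes, threshold 0.05) in R 4.3.3. The standard error given with an edgeR estimate is its absolute log2 fold change divided by the square root of the test's F statistic. The procedure was tested on simulated data. DESeq2 1.42.0, limma 3.58.1 (voom), other scalings and filters, blocks and left-out libraries were alternatives. Coding sequences from GENCODE M21 were aligned with Biopython 1.88. CPM use the TMM-scaled library sizes, with 0.5 added for log2 spreads and for ratios between single libraries. Depth of 86621513 to 106673547 counts per library gives the limits stated for a count of 0, which cover counting error only.

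Named were every called member (at most 12), the 3 highest and 3 lowest estimates per comparison, the 3 highest and lowest core levels, copies with their counterparts, all 21 biogenesis factors, and called members or else the most abundant gene of other lists. The members and lists were chosen with earlier results of these data known. Some genes that this rule picks are not reported here.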

Additional observations from a re-analysis of the deposited data

How the results depend on the processing

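Over all genes, the tissue comparison called 1812 genes in edgeR and 3618 in DESeq2, 895 with a replicate block, 500 with the library name prefix as a block and 18 with the name tag as a block. Without the colon replicate 2 pair, an alternative chosen after seeing the data, it called 1089 in edgeR and 2845 in DESeq2, and leaving out 1 library gave 991 to 1787. Colon GFP-high against small intestine called 1173 genes, 2713 in DESeq2, 508 with a replicate block, 437 and 18 with the prefix and tag blocks, and 564 to 1375 without 1 library. Without the pair it called 508 (edgeR), 1879 (DESeq2) and 603 genes (limma-voom). Between the colon fractions the 0 calls became 1 in DESeq2 and, without the pair, 700 in DESeq2 and 2 in limma-voom. Correlations of same-numbered deviations from the group means ran from -0.604 to 0.303, the lowest in the colon replicate 2 pair, whose Lgr5 goes against its labels. With 3 libraries per group they cannot show whether same-numbered libraries share an animal or a day. The replicate block changed no call of a member.

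Of the ribosomal protein genes, DESeq2 called 3 between the tissues (Rps4l, Rps27 and Rpl9-ps6). The count was 0 with the prefix or the tag as a block, with upper quartile scaling, and without the pair in edgeR and limma-voom, and 0 to 1 without 1 library. Against small intestine, colon GFP-high gave 1 in DESeq2 with and without the pair and 1 with no low-count filter. Of the biogenesis factors, DESeq2 called 7 between the tissues, and 7 without the pair, and leaving out 1 library in edgeR gave 0 to 3. Their median between the colon fractions was 0.68, 0.74 and 0.72 without the pair in DESeq2, limma-voom and edgeR, and -0.17 to 0.55 without 1 library. The cause of these changes was not tested. Upper quartile scaling moved the median of all genes by 0.16 in the tissue comparison. The medians of the core genes and of the biogenesis factors kept their sign there in all alternatives.

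Estimates near 0 changed sign, none of them called. In the tissue comparison upper quartile scaling gave 0.02 for Rpl13a, 0.03 for Rpl4, 0.08 for Rpl7l1, 0.11 for Nhp2 and 0.14 for Utp20. The prefix block gave 0.26 for Rps23rg1, 0.05 for Utp20, 0.04 for Nhp2 and -0.07 for Nip7, and the tag block 0.28 for Rps23rg1, -0.0037 for Rpl22 and -0.18 for Nip7. A minimum of 1 CPM gave 0.03 for Utp20 and 0.0033 for Nhp2. Utp20 also had 0.0016 in DESeq2, 0.0013 in limma-voom, 0.01 with TMM without the members and 0.01 with the replicate block. Nip7 had -0.01 with total-count scaling and, without the pair, -0.11 in DESeq2, -0.11 in limma-voom and -0.15 in edgeR, where Rpl24 had -0.03. Between the colon fractions Rps27rt had 0.02 with the tag block, and Fbl had 0.01 with the replicate block and, without the pair, 1.18 in DESeq2, 1.33 in limma-voom and 1.22 in edgeR. In colon GFP-high against small intestine Rps23rg1 had 0.19 and 0.12 with the prefix and tag blocks, 0.04 with upper quartile scaling and, without the pair, 0.14, 0.15 and 0.13 in DESeq2, limma-voom and edgeR.

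Leaving out 1 library in turn gave ranges across 0 in the tissue comparison for Eif6 (-0.11 to 0.29), Nhp2 (-0.29 to 0.29), Nip7 (-0.21 to 0.32), Rpl13a (-0.35 to 0.11), Rpl22 (-0.16 to 0.28), Rpl24 (-0.23 to 0.34), Rpl4 (-0.29 to 0.12), Rpl7l1 (-0.24 to 0.02), Rps27l (-0.18 to 0.31), Rps4x (-0.16 to 0.33) and Utp20 (-0.29 to 0.19). Between the colon fractions it did so for Fbl (-1.16 to 0.79), Rps19bp1 (-0.11 to 0.42) and Rps27rt (-0.49 to 0.04), and in colon GFP-high against small intestine for Rps23rg1 (-0.38 to 0.12). Depth limits Rpl27rt and Rpl3l most, which lay under 0.5 CPM in every library.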
